A study of Macaca fascicularis with 12 samples.

Results

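Iliac arteries with large atherosclerotic plaque (n = 3) were compared with iliac arteries with small plaque (n = 4), the extremes of the plaque range in a series of 12 arteries. The groups are those that the sample titles give. Each artery came from a different animal and was measured on 1 array, so the 7 values of a gene are 7 animals. All animals were female cynomolgus monkeys (Macaca fascicularis) more than 20 years old, ovariectomized 4 years before the biopsy and fed a high fat diet for 8 years, and none had received a treatment. The labelled plaque area was 1.003 mm2 in large replicate 1, 0.61 mm2 in large replicate 2 and 0.873 mm2 in large replicate 3. It was 0.113 mm2 in small replicate 1 and 0.041 mm2 in small replicate 3, while small replicates 2 and 4 had no plaque and count as 0. The small group therefore joins 2 arteries without a lesion to 2 with a minor lesion, and every small artery came from an animal on the same diet. A further 5 arteries had medium plaque. They entered the fit, where they add to the estimate of the spread.

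Atherosclerotic plaque grows in the inner layer of an artery where cholesterol carried by lipoproteins is retained. Monocytes enter from the blood, become macrophages, take up the lipid and digest it in their lysosomes, and turn into foam cells when the load exceeds what they export. The muscular layer beneath consists of contractile smooth muscle cells, which keep the tone of the vessel and can lose their contractile proteins within a lesion. The biopsies held the artery as a whole, not plaque tissue alone.

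The values are probe intensities relative to an array median close to 1, and 53877 probes were tested. A difference is a group mean of log2 intensity in large minus that in small arteries, followed by its standard error (SE) from the limma fit. A probe was called when its Benjamini-Hochberg adjusted p over all probes was under 0.05. Intensities below 0.111 were set to that floor, so a difference from a group at the floor is understated, and so is the spread within that group. The probes were made for human transcripts, and a mismatch to the monkey sequence can dim a probe, so each probe was compared only with itself across animals. The small arteries varied more than the large ones, with a median standard deviation per probe of 0.43 against 0.27 log2 units. Small replicates 1 and 3 lay more than 2-fold from the mean of the other small arteries in 14.6% and 13.9% of probes. For small replicates 2 and 4 the shares were 7.94% and 9.88%. The large arteries had 7.50% to 7.73% within their own group, where the mean of the others rests on fewer arteries. Smooth muscle and endothelial genes marked the tissue as artery in all 7 biopsies, at 437 to 492 in large and 527 to 770.5 in small arteries for MYH11, the smooth muscle myosin heavy chain, and at 21.1 to 28.4 and 21.0 to 30.3 for PECAM1, an endothelial adhesion molecule. In tissue of mixed cells, fewer cells of a type and less RNA per cell cannot be told apart, which applies to every difference below.

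Large plaque arteries differed from small ones mainly by genes at higher levels. The limma fit called 617 of the 53877 probes (1.15%), of which 511 were higher in large arteries (0.948%) and 106 lower (0.197%). The rises were also larger: their median size was 2.08 log2 units, with 92 probes over 8-fold and 21 over 16-fold, while the falls had a median size of 1.28 with 2 probes over 8-fold and none over 16-fold. The largest difference of all, 7.28 log2 units, belonged to a probe annotated to several genes and is not named. The higher probes with a single gene symbol covered 392 genes and the lower ones 55 genes, and 85 of the higher and 50 of the lower probes carried no symbol here. Small arteries at the floor were rare among the rises, with at least 1 such artery in 27 of the 511 probes, whereas 14 of the 106 falls had at least 1 large artery at the floor and 2 had all of them there.

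Below the calls the balance ran the other way. The values of the 3 large arteries did not overlap with those of the 4 small arteries in 14.5% of the 53726 probes with a value in all 7, with the large arteries above in 5.99% and below in 8.5%. Most of these non-overlapping differences did not pass the test. Another scale moved this balance: on log2 of intensity plus 1, which compresses dim probes, 605 probes were called higher and 280 lower, so that 68.4% of calls were rises instead of 82.8%. The number of calls also depended on single arteries. Leaving out large replicate 1 or 3 left 132 or 112 calls. Leaving out small replicate 2 left 261, and leaving out small replicate 1 gave 1216. In each of these fits no called probe changed its sign. With 1 probe per gene, the brightest with a value on every array, 346 of 18080 genes were higher (1.91%) and 46 lower (0.254%). The median difference of all these genes was -0.05, and 45.0% of them lay above 0. An unadjusted p under 0.05 in the limma fit was found for 8658 of the 53877 probes (16.1%). Those shares are the background for the gene lists described here. The shares of non-overlap and of unadjusted p cover all probes, not 1 probe per gene.

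**Figure D1:**
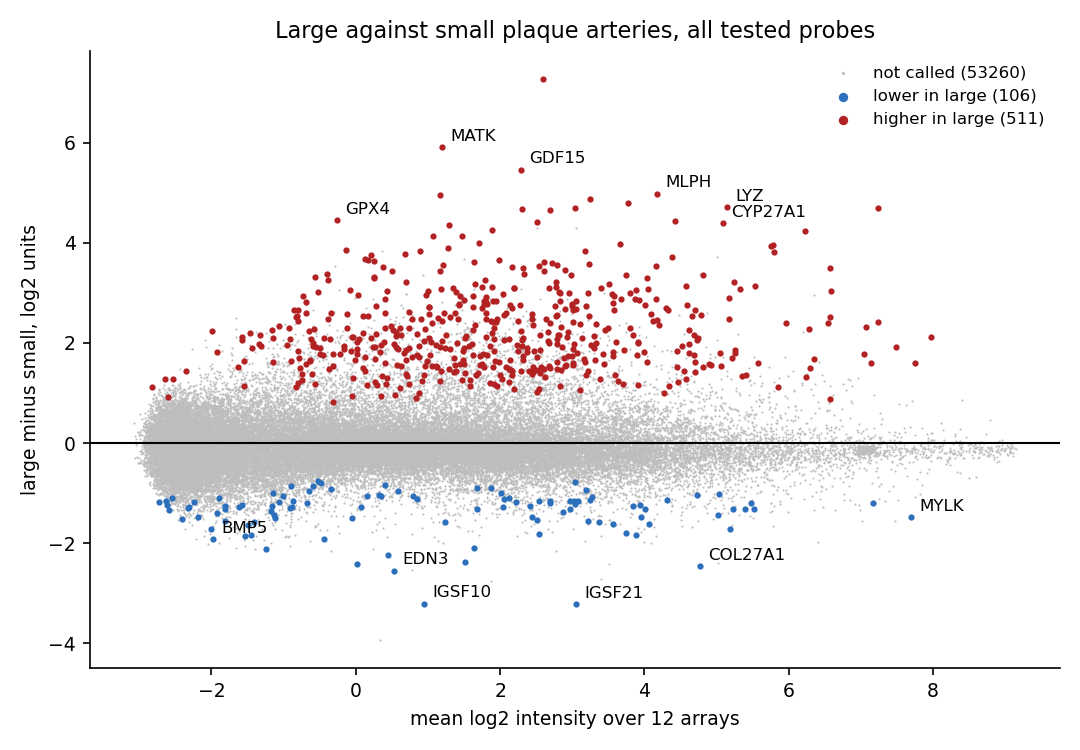
Difference between large (n = 3) and small (n = 4) plaque arteries in log2 units against the mean log2 intensity over 12 arrays, for all 53877 probes. Red points are the 511 probes called higher and blue points the 106 called lower, grey points are not called, and some called genes are labelled. The rises reach 7.28 and the falls -3.22, and both occur from dim to bright probes.

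The largest rise of a named gene was that of MATK, a tyrosine kinase of blood cells that restrains Src family kinases. Its intensity was 12.1, 9.87 and 14.5 in large replicates 1 to 3, against 0.389 and 0.330 in small replicates 1 and 2 and the floor in small replicates 3 and 4, a difference of 5.91 ± 0.54 log2 units (adjusted p = 0.00092). The 3 large arteries lay within 1.47-fold of each other, and the lowest of them was 25.4-fold above the highest small artery. GDF15, a cytokine of the TGF-beta family that cells release under stress, read 14.6, 13.3 and 26.0 in large and 0.519, 0.399, 0.164 and 0.678 in small arteries and rose by 5.46 ± 0.48 (adjusted p = 0.00092). The lowest large artery was 19.6-fold above the highest small artery. MLPH, melanophilin, which ties Rab27 vesicles to a myosin motor, read 78.4, 32.5 and 76.3 against 2.67, 1.65, 1.16 and 2.20, a rise of 4.99 ± 0.43 (adjusted p = 0.00092). Large replicate 2 was the lowest of its group but still 12.2-fold above the highest small artery. The dimmer probe of MLPH differed by -0.02 and was not called.

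CYP27A1, the mitochondrial sterol 27-hydroxylase that starts a route of cholesterol removal, had the smallest p of all probes with a single gene symbol. It read 121, 61.4 and 117 in large and 7.17, 3.95, 3.90 and 3.80 in small arteries, a rise of 4.40 ± 0.32 (adjusted p = 0.000525). Within the small group, replicate 1, the artery with the largest area of that group, was the highest, and the other 3 lay close together. LYZ, the lysozyme of phagocytes, read 129.8, 99.0 and 133 against 6.43, 2.91, 1.93 and 11.9 and rose by 4.71 ± 0.60. The large arteries were close together and the small ones spread over 6.18-fold. Rises of similar size were seen in LY86 (4.43), the secreted partner of the B cell and myeloid receptor CD180, in RENBP (4.41), an epimerase of amino sugar metabolism, in LAPTM5 (4.95), a membrane protein of lysosomes in white blood cells, and in CRABP2 (4.80), a carrier of retinoic acid. CRABP2 ranged from 1.26 to 1.79 in the small arteries and from 22.7 to 72.3 in the large ones.

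Some of the largest rises had a wide spread within the large group. GPX4, the enzyme that reduces lipid hydroperoxides in membranes, read 32.5, 1.01 and 14.96 in large and 0.658, 0.218, 0.454 and 0.255 in small arteries, a difference of 4.46 ± 0.88 (adjusted p = 0.0361). Large replicate 2 was 1.53-fold above the highest small artery, and the large arteries spread over 32.3-fold. PLA2G2A, a secreted phospholipase A2, read 53.2, 36.2 and 8.45 against 2.58, 0.482, 0.732 and 1.10 (4.66 ± 1.00, adjusted p = 0.0485), with large replicate 3 the lowest of its group. LAMP1, a major protein of the lysosomal membrane, read 19.2, 3.15 and 7.65 against 0.111, 0.263, 0.819 and 0.874 (4.35 ± 0.88, adjusted p = 0.0395), where small replicate 1 stood at the floor. ADAMDEC1, a secreted protease of macrophages and dendritic cells, read 46.4, 17.6 and 31.9 against 0.872, 0.792, 0.792 and 1.86 (4.88 ± 0.77), and small replicate 4 was higher than the other small arteries. Of the 15 largest rises, 10 stayed called whichever single artery was left out. The exceptions were these 4 genes and CRABP2: without large replicate 1 or without large replicate 3 all 5 lost their call. PLA2G2A also lost it without large replicate 2, small replicates 2, 3 or 4 or medium replicates 2 or 3. GPX4 lost it without small replicates 2, 3 or 4 or medium replicates 2, 3 or 5, and LAMP1 without small replicate 2 or medium replicates 2 or 3.

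**Figure D2:**
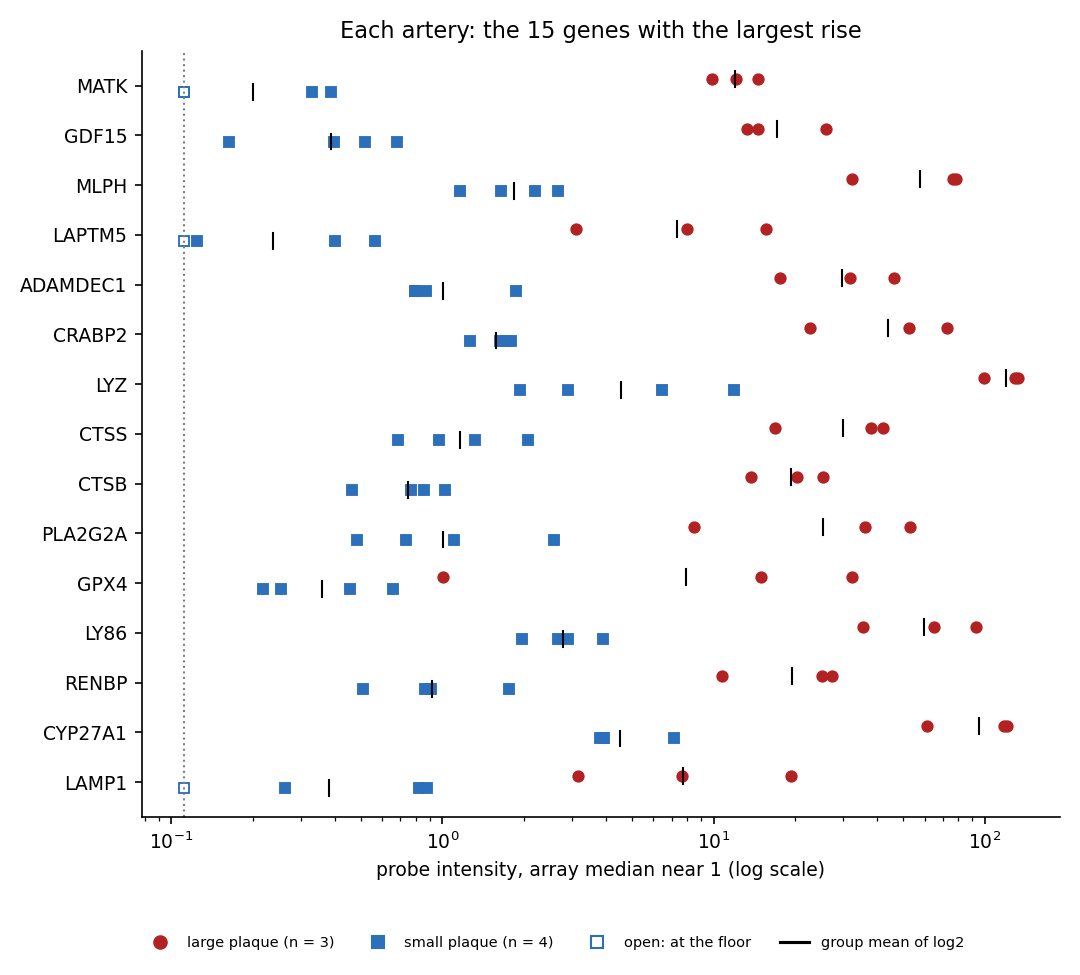
Probe intensity of each artery on a log scale for the 15 single-symbol genes of largest rise, in order of size. Red circles are large arteries (n = 3), blue squares small arteries (n = 4), open symbols sit at the floor of 0.111 and bars mark the group means of log2. No large artery overlaps a small artery in any of the 15 genes, and GPX4 has the widest spread among large arteries, 1.01 to 32.5.

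The 8 rises of smallest p stayed called in each fit that left out an artery. Beside CYP27A1, MLPH, GDF15, MATK and LY86 they were GPR84, IFI30 and MS4A7. GPR84, a receptor for medium-chain fatty acids on myeloid cells, read 10.9, 11.1 and 13.6 in large and 1.43, 1.36, 1.20 and 1.92 in small arteries and rose by 3.02 ± 0.28. IFI30, a lysosomal thiol reductase of antigen processing, read 162, 84.7 and 176 against 12.9, 4.97, 7.83 and 11.1 and rose by 3.96 ± 0.37. MS4A7, a membrane protein of macrophages, read 8.50, 8.42 and 9.20 against 1.88, 1.19, 1.48 and 1.37 and rose by 2.57 ± 0.25. The large arteries were within 1.09-fold of each other for MS4A7 and within 1.24-fold for GPR84. A dimmer probe of MS4A7 differed by 0.03 and was not called.

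Markers of macrophages were higher in large plaque arteries. Of 20 measured markers 10 rose and none fell, and the list median was 2.01 log2 units against -0.05 over all genes. TYROBP, the signalling adaptor of many myeloid receptors, read 69.9, 68.1 and 111 in large and 15.5, 5.36, 10.6 and 9.58 in small arteries and rose by 3.07 ± 0.33. CD14, the co-receptor for bacterial lipopolysaccharide, read 4.48, 2.25 and 3.75 against 0.376, 0.242, 0.611 and 0.246 and rose by 3.29 ± 0.61. CD163, the scavenger receptor for haemoglobin, read 16.8, 14.4 and 16.7 against 6.18, 1.59, 3.69 and 2.47 and rose by 2.37 ± 0.41. In CD163 small replicate 1 was the highest of its group, yet no small artery reached the large ones. CD86 (3.18), a costimulatory ligand, ITGAX (2.80), an integrin of dendritic cells and macrophages, FCGR1A (2.98), the high-affinity IgG receptor, and the complement genes C1QA (2.10) and C1QC (1.91) rose as well.

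Not every macrophage marker moved this way: 14 of the 20 differences were above 0 and 6 below. All large arteries lay above all small ones in 13 of the 20, against 5.99% of all probes. In 3 of the 20 they lay below, against 8.5% of all probes. The 3 were CD68, MARCO and VSIG4, of which the last pair was named after its values were seen. VSIG4, a complement receptor of tissue macrophages, had the lowest difference of the list (-1.61 ± 0.54, adjusted p = 0.173), and MARCO, a scavenger receptor, differed by -0.90 ± 0.27 (adjusted p = 0.124). CD68, a lysosomal glycoprotein widely used to stain macrophages, read 34.7, 33.4 and 28.5 in large and 55.7, 44.5, 60.4 and 44.1 in small arteries, a difference of -0.66 ± 0.51 that was not called (adjusted p = 0.566), and all 3 large arteries lay below all 4 small ones. MSR1, the class A scavenger receptor, read 34.2, 8.10 and 33.4 against 1.13, 0.910, 1.28 and 1.01, with no overlap, yet its difference of 4.29 ± 1.19 was not called (adjusted p = 0.104). The spread that entered the test included the medium arteries, which ranged from 0.546 to 62.5. When only the 7 large and small arrays were fitted, MSR1 was called. CSF1R, the receptor for macrophage colony-stimulating factor, differed by 1.72 ± 0.42 without overlap and was not called on its brighter probe (adjusted p = 0.0695). Its dimmer probe was called and rose by 2.58 ± 0.47 (adjusted p = 0.0249). The 10 calls of the list became 5 without large replicate 1 and 5 without large replicate 3, and 11 against only the 2 small arteries without plaque.

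Kinases, adaptors and Fc receptors of blood cells had a median of 2.13 log2 units, with 11 of 19 members called higher and none lower. On log2 of intensity plus 1 the median was 1.13, below the 1.67 of the macrophage list on that scale. FGR, a Src family kinase of myeloid cells, read 5.42, 4.70 and 7.45 in large and 0.215, 0.324, 0.628 and 0.502 in small arteries and rose by 3.90 ± 0.41. FCGR2B, the inhibitory IgG receptor, read 86.5, 30.9 and 46.2 against 10.2, 1.82, 3.50 and 3.10 and rose by 3.73 ± 0.53, with large replicate 1 and small replicate 1 the highest of their groups. TREM1, an activating receptor of myeloid cells, read 27.6, 19.4 and 30.9 against 2.85, 2.39, 3.78 and 3.35 and rose by 3.06 ± 0.35, and its second probe rose by 2.23. The kinases LYN (2.94) and SYK (2.22), the phospholipase PLCG2 (2.04), the adaptors LAT2 (3.38) and DOK2 (2.12), the phosphatase PTPN6 (2.41) and PTPRC (3.33), the CD45 antigen of all white blood cells, rose with them. DOK2 was nearly the same in every small artery, 0.145 to 0.155. Second probes of SYK and PTPRC differed by -0.38 and -0.62 and were not called. Without large replicate 3 the calls numbered 7.

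Lysosomal genes were higher in large plaque arteries. Of 28 measured enzymes and membrane proteins 15 rose and none fell, 27 had a difference above 0, and the list median was 1.83. The cathepsins, the proteases of the lysosome, led. CTSS, which is also active outside the cell on elastin, read 38.1, 16.8 and 42.1 in large and 2.07, 0.688, 1.32 and 0.968 in small arteries and rose by 4.69 ± 0.55. CTSB read 25.4, 13.7 and 20.4 against 0.766, 0.465, 0.857 and 1.02 and rose by 4.68 ± 0.63. Dimmer probes of CTSS and CTSB differed by 0.80 and 1.05 and were not called. CTSA (4.25), CTSD (3.61), CTSC (2.72), CTSH (2.31), CTSL (1.93) and CTSK (1.60) rose too, while CTSZ was not called. CTSK and CTSL were bright in all arteries: CTSL read 215, 237 and 341 against 74.8, 68.3, 52.6 and 80.1, so that its rise came on top of a clear signal in arteries without plaque.

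Enzymes that digest other cargo followed. GRN, the precursor of lysosomal granulins, read 49.3, 26.9 and 49.0 in large and 2.09, 2.03, 5.01 and 2.03 in small arteries and rose by 3.97 ± 0.40, with small replicate 3 the highest of its group. MAN2B1, an alpha-mannosidase, read 13.8, 6.26 and 11.8 against 0.420, 0.381, 1.15 and 0.599 and rose by 4.13 ± 0.45. ASAH1, the acid ceramidase, read 20.6, 8.22 and 17.2 against 1.18, 0.920, 0.857 and 2.09 and rose by 3.59 ± 0.47. In each of the 3, large replicate 2 was the lowest large artery and no small artery reached it. The sialidase NEU1 (2.66), the glucuronidase GUSB (2.59) and NPC2 (1.60), which carries cholesterol out of the lysosome, rose as well. PSAP, the precursor of the saposins, and LAMP2 did not overlap between the groups but were not called (1.91 ± 0.45, adjusted p = 0.0653, and 1.75 ± 0.43, adjusted p = 0.0733). Second probes of GRN and CTSC differed by -0.24 and -0.63 and were not called. The 15 calls became 8 without large replicate 1 and 8 without large replicate 3.

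Genes of lipid handling and foam cells were higher in large plaque arteries, with 11 of 23 called higher, none lower and a median of 2.10. That median was 1.11 on log2 of intensity plus 1. FABP5, a fatty acid carrier of macrophages, read 125, 87.5 and 156 in large and 14.4, 7.07, 3.71 and 9.74 in small arteries and rose by 3.94 ± 0.39. LGALS3, galectin 3, read 200.1, 183 and 276 against 36.0, 23.8, 17.3 and 32.1 and rose by 3.04 ± 0.34. CD36, a scavenger receptor for oxidised lipoprotein, read 46.2, 20.4 and 46.4 against 7.71, 6.33, 3.56 and 3.11 and rose by 2.87 ± 0.51. For all 3 genes the 2 arteries without plaque were not set apart from the 2 with a minor lesion. APOC1 (3.56), an apolipoprotein, LPL (3.11), lipoprotein lipase, SOAT1 (2.16), which esterifies cholesterol for storage in droplets, and GPNMB (2.10), a glycoprotein of lipid-laden macrophages, rose as well.

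Secreted products of mature macrophages belonged to the same list. CHI3L1, a chitinase-like glycoprotein, read 111, 181 and 285 in large and 43.2, 10.1, 8.96 and 16.5 in small arteries and rose by 3.49 ± 0.50, and CHIT1, chitotriosidase, read 48.8, 24.8 and 41.8 against 4.24, 4.08, 5.32 and 4.06 and rose by 3.07 ± 0.48. The dimmer probe of CHI3L1 differed by 0.14 and was not called. TREM2, a lipid receptor of foam cells, read 6.87, 7.33 and 11.9 against 4.30, 0.712, 0.716 and 0.714 and rose by 2.91 ± 0.60. Small replicate 1 was far above the other small arteries for TREM2, and the lowest large artery was 1.60-fold above it. PLA2G7, the lipoprotein-associated phospholipase A2, was not called (3.07 ± 0.75, adjusted p = 0.0702), nor was the cholesterol exporter ABCA1 (1.43 ± 0.34, adjusted p = 0.0668), although neither overlapped between the groups. SPP1, osteopontin, overlapped, at 0.210, 1.21 and 0.942 against 0.219, 0.246, 0.210 and 0.111. Leaving out large replicate 1 left 5 of the 11 calls, leaving out large replicate 3 left 4 and leaving out small replicate 2 left 7. Genes of cholesterol synthesis had no call among 11 and a median of -0.35. An unadjusted p under 0.05 was seen in 2 of them, against 16.1% of all probes.

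The antigen presentation genes of MHC class II had 5 of 11 members called higher, none lower and a median of 1.46, which was 0.92 on log2 of intensity plus 1. HLA-DPB1, a chain of the HLA-DP molecule, read 12.7, 11.9 and 13.1 in large and 0.665, 0.718, 1.73 and 1.74 in small arteries and rose by 3.52 ± 0.57. HLA-DMA and HLA-DMB, which load peptide in the lysosomal compartment, rose by 1.79 ± 0.31 and 1.46 ± 0.26, HLA-DQB1 by 2.48 ± 0.44 and HLA-DRA by 1.53 ± 0.30. Dimmer probes of HLA-DMA and HLA-DRA differed by 0.03 and 0.46 and were not called. HLA-DPA1 read 72.7, 68.7 and 98.4 against 0.256, 21.7, 11.7 and 20.0 and was not called (3.71 ± 1.25, adjusted p = 0.173), with small replicate 1 far below the other small arteries. These genes are polymorphic and closely related, so their values on human probes are uncertain. The 5 calls rested on single arteries: none was left without large replicate 1 or without large replicate 3, and 1 without small replicate 2.

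Toll-like receptors and their partners, sensors of microbial products, had 5 of 15 called higher, none lower and a median of 0.72, which ranged from 0.47 without small replicate 3 to 1.37 among probes brighter than the median. LY96, the MD-2 protein that binds lipopolysaccharide for TLR4, read 4.20, 3.01 and 3.61 in large and 0.710, 0.325, 0.547 and 0.706 in small arteries and rose by 2.71 ± 0.33. TLR4 read 9.86, 5.56 and 7.78 against 2.90, 1.03, 0.888 and 1.38 and rose by 2.45 ± 0.42 on 1 of its 2 probes, the other differing by -0.28 without a call. TLR1 (2.66) and TLR8 (1.72) rose with LY86. Leaving out large replicate 1 or 3 left 2 of the 5 calls, and leaving out small replicate 2 left 3.

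Oxidase, antioxidant and iron genes had 8 of 22 members called higher, none lower and a median of 0.91, which was 1.96 among probes brighter than the median. SOD2, the mitochondrial superoxide dismutase, read 133, 116 and 132 in large and 22.1, 6.18, 4.74 and 10.2 in small arteries and rose by 3.82 ± 0.44, although its second probe differed by -0.28 and was not called. Subunits and regulators of the phagocyte oxidase rose: CYBA by 3.22 ± 0.61, NCF4 by 2.76 ± 0.52 and RAC2 by 2.70 ± 0.55. In these 3 genes small replicate 1 was the highest of its group, with 13.5, 1.85, 3.01 and 4.31 for NCF4 and 15.1, 3.36, 4.78 and 3.91 for RAC2. GPX1, a glutathione peroxidase of the cytosol, read 178, 154 and 194 against 56.5, 20.8, 42.8 and 24.2 and rose by 2.39 ± 0.31. HMOX1 (1.97), which breaks down haem, and GPX3 (1.95) rose as well. The 8 calls became 4 without large replicate 1, large replicate 3, small replicate 2 or small replicate 4, 5 without small replicate 3 and 11 without small replicate 1.

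Some chemokine and cytokine genes were called and no interferon response gene was, where 1.91% of all genes were called higher. Of 23 chemokines, receptors and adhesion molecules 4 rose, with a list median of 0.22. CXCL8, interleukin 8, read 31.2, 17.8 and 19.4 in large and 2.20, 0.889, 1.00 and 2.97 in small arteries and rose by 3.83 ± 0.45. CXCR4, the receptor for CXCL12, read 35.9, 10.9 and 25.9 against 1.37, 1.14, 2.01 and 3.46 and rose by 3.58 ± 0.51. CCL2, which attracts monocytes, read 4.14, 3.43 and 5.38 against 1.93, 1.58, 1.30 and 1.24 and rose by only 1.51 ± 0.25, and CCR1 rose by 2.61 ± 0.55. The adhesion molecule VCAM1 read 2.41, 2.57 and 2.43 against 2.19, 1.90, 2.60 and 3.04, with overlapping groups. Among 20 cytokines and receptors, GDF15 and TNFSF13B (1.63), the B cell factor BAFF, rose and the list median was 0.01. Interferon response genes had no call among 20 and a median of 0.17. The complement list, which leaves out the C1q chains counted with the macrophage markers, had none among 16 and a median of 0.12. In each of these lists 4 genes had an unadjusted p under 0.05, against 16.1% of all probes. Without large replicate 3 the chemokine list had 1 call and without large replicate 1 it had 2, and the cytokine list had 1 without either of these or without small replicate 2.

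Proteases of the matrix had 5 of 27 called higher and a median of 0.42. Besides ADAMDEC1, the called genes were PLAU, the urokinase, and its receptor PLAUR, and the metalloproteases MMP12 and MMP19. PLAU read 32.7, 24.4 and 37.7 in large and 8.18, 7.89, 9.79 and 6.83 in small arteries and rose by 1.94 ± 0.26. PLAUR read 4.31, 2.89 and 4.18 against 1.29, 0.854, 0.800 and 1.05 and rose by 1.93 ± 0.33. Neither overlapped, and the arteries of a group spread over at most 1.61-fold. MMP12, the macrophage elastase, was dim, at 1.32, 0.854 and 0.583 against 0.241, 0.296, 0.201 and 0.190, and rose by 1.93 ± 0.39, while MMP19 rose by 2.21 ± 0.38 on its brighter probe and differed by -0.12 on the other. MMP9 overlapped, at 5.40, 3.71 and 5.82 against 3.07, 3.21, 4.99 and 3.77. The 5 calls became 1 without large replicate 1 or large replicate 3 and 2 without small replicate 2.

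**Figure D3:**
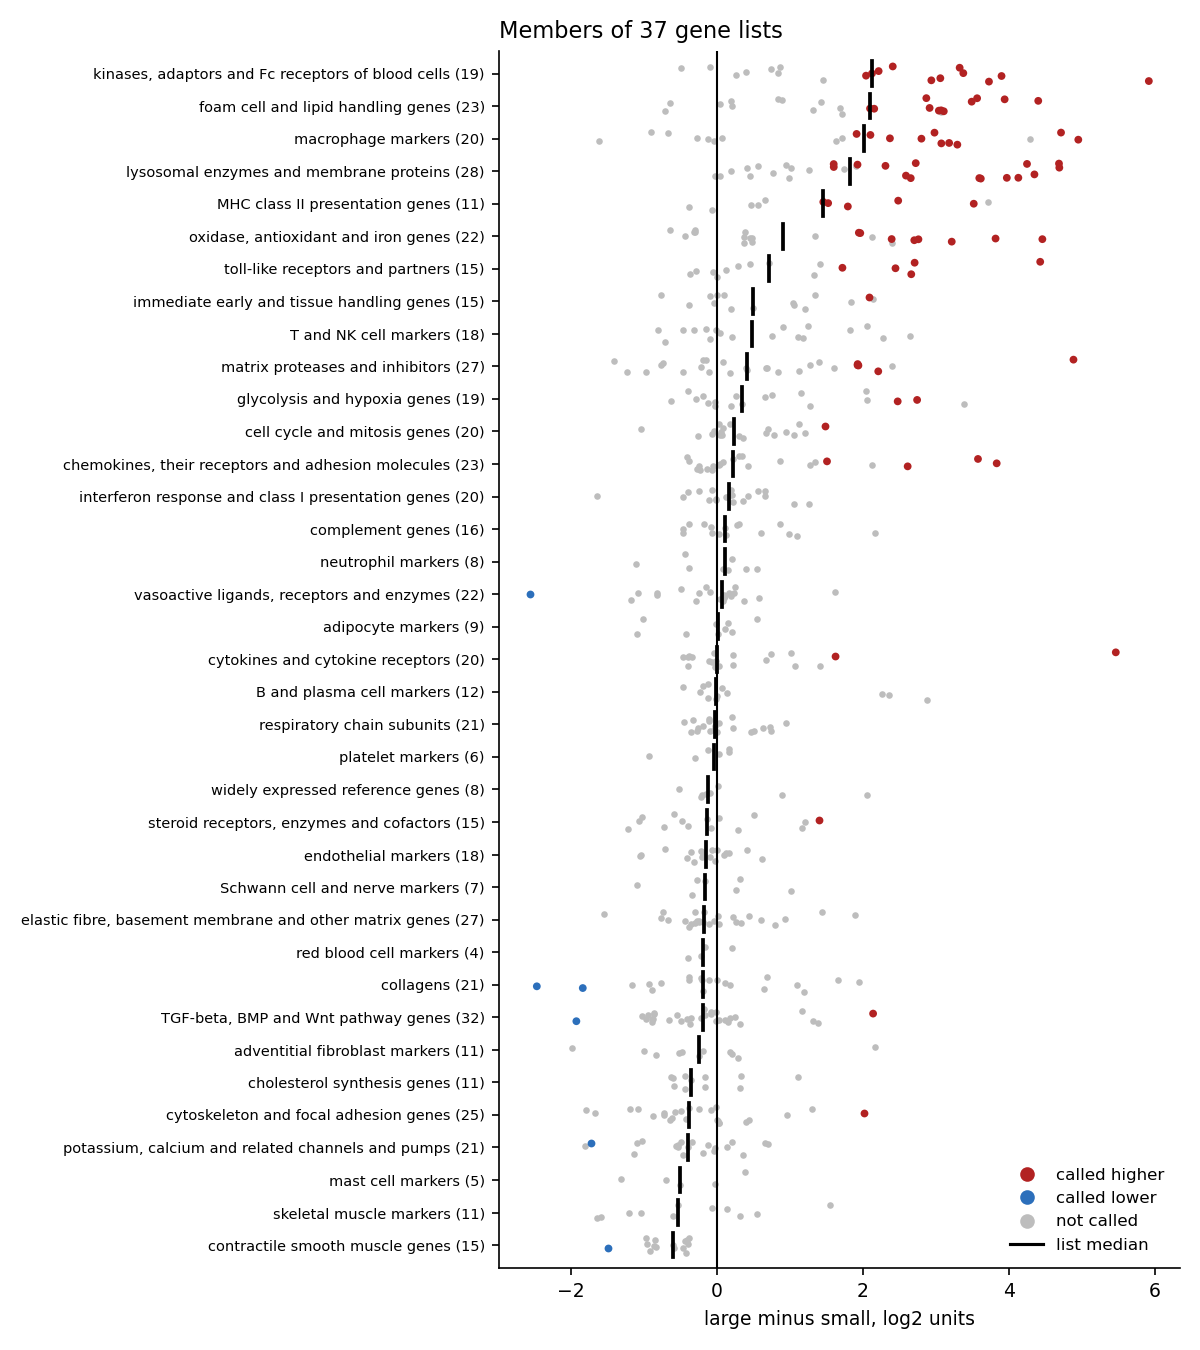
Difference between large and small arteries in log2 units for the members of 37 gene lists, 1 probe a gene, with the number measured in brackets and the lists ordered by median. Red points are called higher, blue points called lower, grey points not called, and bars mark list medians. Medians run from 2.13 for kinases, adaptors and Fc receptors of blood cells to -0.59 for contractile smooth muscle genes.

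The largest falls were in genes of cell surface, matrix and signalling proteins, and they were smaller than the largest rises. IGSF10, a secreted protein of the immunoglobulin superfamily, read 2.62, 1.05 and 0.498 in large and 14.2, 10.4, 8.31 and 9.05 in small arteries and fell by 3.21 ± 0.42 (adjusted p = 0.00435). IGSF21, an adhesion protein of the same superfamily, read 6.71, 4.73 and 1.85 against 26.0, 25.2, 83.5 and 31.0 and fell by 3.22 ± 0.68 (adjusted p = 0.0452). Small replicate 3 was the highest for IGSF21, and large replicate 3 was the lowest for both. EDN3, the peptide endothelin 3, read 1.36, 0.847 and 0.562 against 5.98, 10.2, 3.59 and 3.00 and fell by 2.55 ± 0.45 (adjusted p = 0.0203). COL27A1, a fibrillar collagen, read 17.9, 17.4 and 8.50 against 73.7, 72.3, 116 and 54.5 and fell by 2.46 ± 0.35 on 1 of its 3 probes, the others not being called and 1 of them differing by 0.08. FST, follistatin, which traps activin, read 12.8, 9.54 and 5.65 against 44.0, 26.4, 23.8 and 33.2 and fell by 1.81 ± 0.39. In each of these genes the lowest small artery stood above the highest large artery.

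Other falls were those of the secreted peptide precursor ECRG4 (2.38), the lectin CHODL (2.23) and the transmembrane collagen COL13A1 (1.83). ACACB (1.62), an acetyl-CoA carboxylase that limits fatty acid oxidation, fell on 1 probe. Its other probes differed by -0.09, -1.04 and -0.64 and were not called, and the call was lost in 18 of 28 alternatives. The potassium channel KCNA5 read 24.4, 29.6 and 22.4 in large and 60.1, 83.8, 104 and 91.7 in small arteries and fell by 1.72 ± 0.37. BMP5, a bone morphogenetic protein, read 0.133 in large replicate 3 and the floor in the other 2 large arteries, against 0.668, 0.391, 0.266 and 0.573, and fell by 1.92 ± 0.35. RARB-AS1, an antisense transcript of a retinoic acid receptor gene, fell by 1.57 ± 0.30, PHYHIPL by 1.54 ± 0.29 and LOC101927727, an uncharacterised locus, by 1.58 ± 0.33. The strand that the RARB-AS1 probe reads was not checked.

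Small p-values among the falls came partly from dim probes with little spread. VSX1, a homeobox gene of the retina, read 0.183, 0.174 and 0.185 against 0.630, 0.481, 0.621 and 0.526 and fell by 1.63 ± 0.18 (adjusted p = 0.00169), and its brighter probe differed by 0.14 and was not called. ADAM3A, a pseudogene, was at the floor in all 3 large arteries against 0.281, 0.250, 0.263 and 0.212 and fell by 1.17 ± 0.16, a size that the floor understates. The floor also removed the spread among the large arteries, which lowers the p-value. This call was lost with the floor at the 1st percentile and on log2 of intensity plus 1. HHIP, an antagonist of hedgehog ligands, read 0.494, 0.648 and 0.623 against 1.72, 2.10, 1.75 and 1.16 and fell by 1.49 ± 0.23. KLHL42, a ubiquitin ligase adaptor, read 30.4, 34.0 and 18.9 against 61.5, 72.1, 63.6 and 73.6 and fell by 1.32 ± 0.21, and OPN1LW, a cone opsin, read 17.9, 23.9 and 18.0 against 36.1, 67.2, 66.7 and 50.1 and fell by 1.44 ± 0.23. SQSTM1, the autophagy receptor p62, was called in opposite directions by its 2 probes: the dim probe fell by 1.39 ± 0.23, and the brighter one rose by 2.86 (adjusted p = 0.0186). Of the 15 largest falls, IGSF10, COL27A1 and VSX1 stayed called whichever single artery of the 2 groups was left out. The number called fell to 4 without large replicate 1 or small replicate 2, 3 without large replicate 3, 7 without large replicate 2 or small replicate 4 and 8 without small replicate 3. It was 10 without small replicate 1.

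**Figure D4:**
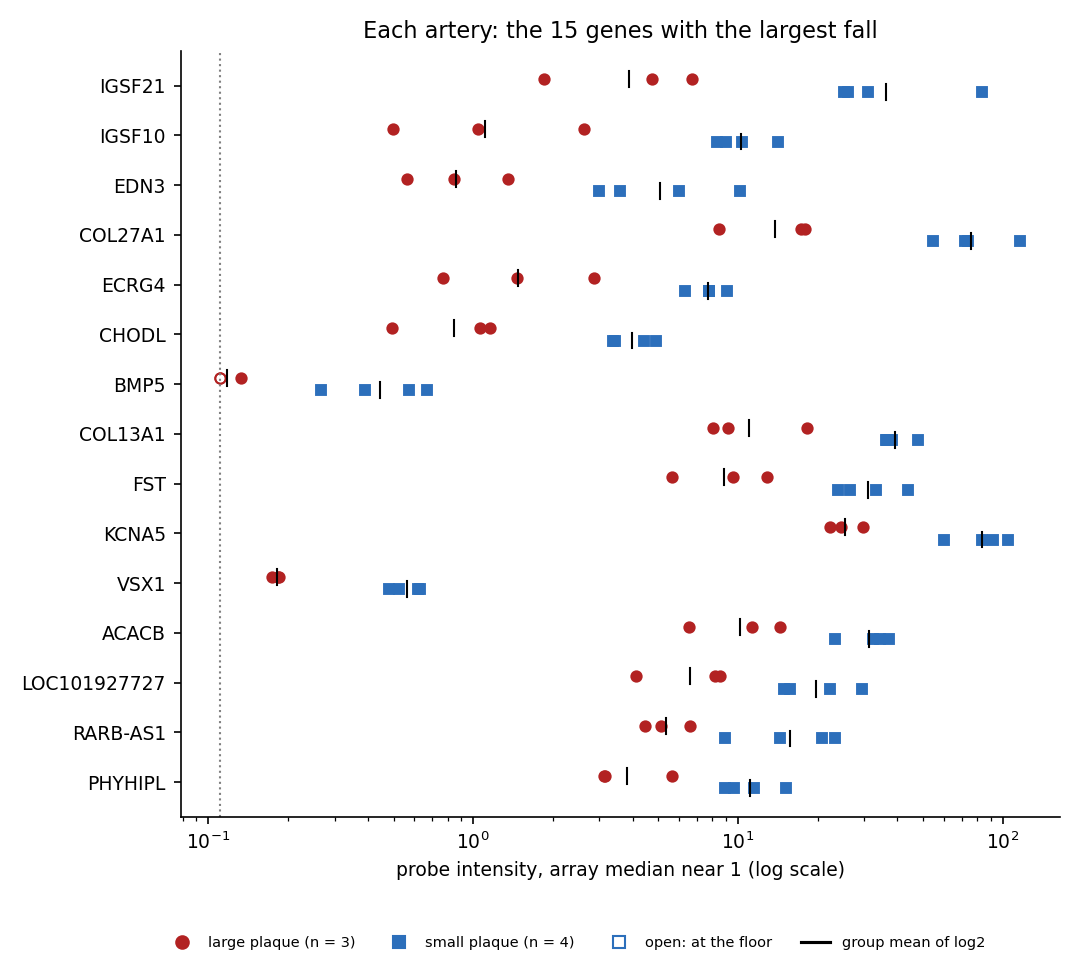
Probe intensity of each artery on a log scale for the 15 single-symbol genes of largest fall, in order of size. Red circles are large arteries (n = 3), blue squares small arteries (n = 4), open symbols sit at the floor of 0.111 and bars mark the group means of log2. The groups do not overlap in any of the 15 genes, and 2 of the 3 large arteries are at the floor for BMP5.

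Contractile genes of smooth muscle all lay lower in large arteries, by small amounts, and 1 of them passed the test. The 15 measured genes had a difference below 0, between -1.48 and -0.37, with a median of -0.59, and MYLK alone was called. MYLK, the myosin light chain kinase, read 156, 169 and 135 in large and 448, 390.4, 460.5 and 410.5 in small arteries and fell by 1.48 ± 0.31 (adjusted p = 0.0428). Its dimmer probe differed by 0.73 and was not called, and the call was lost when any single large or small artery was left out. MYH11 read 492, 487 and 437 against 770.5, 565, 606 and 527, without overlap but not called (-0.37 ± 0.20, adjusted p = 0.393). ACTA2, the smooth muscle actin, read 314, 462 and 169 against 667, 394, 546 and 257, with overlap (-0.59 ± 0.42, adjusted p = 0.529). The list mean lay below the small group mean by 0.87 in large replicate 1 and 1.01 in large replicate 3, and by 0.23 in large replicate 2, the large artery of smallest area. The list median was -0.97 without large replicate 2 and -0.997 against only the small arteries with a minor lesion, and it lay between -0.63 and -0.46 over the other ways of scaling.

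Ion channels and pumps had 1 of 21 genes called, KCNA5, and a median of -0.39. In 8 members the large arteries lay wholly below the small ones, against 8.5% of all probes. KCNMA1, the large-conductance calcium-activated potassium channel, read 25.4, 28.1 and 17.4 against 59.5, 55.0, 44.8 and 46.4 and missed the threshold (-1.14 ± 0.28, adjusted p = 0.0701). The KCNA5 call was lost without any single large artery and without small replicates 2, 3 or 4. Among 25 cytoskeleton and focal adhesion genes the median was -0.39, and the only call was a rise, that of CRIP2, a LIM domain protein, at 4.85, 5.44 and 8.35 against 1.24, 1.09, 3.00 and 1.23 (2.02 ± 0.38). That call was lost without any single large artery and without small replicates 2 or 4. Collagens had 2 of 21 called lower, COL27A1 and COL13A1, and a median of -0.19, and COL13A1 lost its call without large replicates 1 or 3 or without small replicates 2, 3 or 4. COL1A1, the main fibrillar collagen of plaque caps, read 8.11, 6.23 and 6.51 against 7.07, 6.84, 6.90 and 5.00, with overlap. A brighter COL1A1 probe, without a value on every array, differed by 0.40 and was not called. The 27 elastic fibre, basement membrane and other matrix genes had no call and a median of -0.18. Of these, 6 had an unadjusted p under 0.05, against 16.1% of all probes.

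Signalling genes of the vessel wall showed single calls. Of 22 vasoactive genes EDN3 fell, a call lost without large replicates 2 or 3, and the list median was 0.07. Among 32 TGF-beta, BMP and Wnt genes TGFB1, the main transforming growth factor, ranged from 5.50 to 9.02 in large and from 1.14 to 2.16 in small arteries and rose (2.14 ± 0.45, adjusted p = 0.0462), and BMP5 fell. The TGFB1 call was lost when any single artery of the 2 groups was left out, and that of BMP5 without any single large artery or small replicates 2 or 4. Among 15 steroid receptor genes the corepressor NRIP1 rose by 1.40 ± 0.30 on 1 probe and differed by -0.30 on another, and its call was lost without any single large artery or small replicates 2, 3 or 4. ESR1, the oestrogen receptor alpha, read 21.2, 25.0 and 18.3 in large and 42.9, 53.4, 32.3 and 46.6 in small arteries, and PGR, the progesterone receptor, read 17.4, 41.6 and 14.5 against 65.6, 47.2, 44.4 and 48.9. Neither overlapped and neither was called (-1.02 ± 0.31, adjusted p = 0.138, and -1.22 ± 0.37, adjusted p = 0.133). All arteries came from animals without ovaries, so the comparison holds no artery with ovarian hormone.

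Markers of the other cell types that the biopsies could hold had no call on the brightest probe of a gene. Over all genes 1.91% were called higher and 0.254% lower, so lists this short can lack a call at those shares. None was called among 18 of T and NK cells (median 0.48), 12 of B and plasma cells (-0.01), 8 of neutrophils (0.11), 5 of mast cells (-0.51), 6 of platelets (-0.04), 18 of endothelium (-0.14), 11 of adventitial fibroblasts (-0.24), 9 of fat cells (0.01), 7 of Schwann cells (-0.15), 11 of skeletal muscle (-0.53) or 4 of red blood cells (-0.19). At an unadjusted p under 0.05 there were 7, 3, 2, 1, 1, 3, 2, 2, 2, 5 and 0 of them in that order. The share over all probes was 16.1%. The T and NK markers were sensitive to small replicate 1, since 6 of them were called without it. Their summed intensity was 58.0 to 116.7 in large arteries, against 65.2 in small replicate 1 and 31.7 to 43.1 in the other small arteries. CD8B read 43.7, 9.07 and 3.34 in large and 3.08, 1.85, 1.43 and 1.16 in small arteries, and JCHAIN, the joining chain of antibodies made by plasma cells, read 54.6, 8.36 and 7.56 against 4.43, 1.32, 1.82 and 1.67. In both, large replicate 1 was by far the highest and the difference was not called (2.65 ± 0.87, adjusted p = 0.163, and 2.88 ± 0.75, adjusted p = 0.0845). Of the 3 probes of PECAM1 the dimmest rose by 1.25 (adjusted p = 0.0486), while the brightest differed by -0.06 ± 0.19.

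Skeletal muscle markers could enter with the tissue around the vessel. Their summed intensity was 48.0 to 70.1 in large arteries and 69.5 to 113.2 in small ones, highest in small replicate 3, and CKM, muscle creatine kinase, read 0.130, 0.336 and 0.263 against 0.435, 0.458, 1.54 and 0.804. The part of such tissue in the differences was not tested. Widely expressed reference genes had no call among 8 and a median of -0.12. An unadjusted p under 0.05 was seen in 2 of them, against 16.1% of all probes. Among them ACTB, cytoplasmic actin, read 86.8, 63.6 and 48.2 against 6.66, 11.6, 20.7 and 35.9 (2.06 ± 0.57, adjusted p = 0.104). GAPDH, the glycolytic enzyme, read 64.7, 91.1 and 68.3 against 1.71, 3.64, 30.5 and 13.2 (3.38 ± 0.81, adjusted p = 0.0674). Neither overlapped and neither was called, and the small arteries spread over 5.39-fold for ACTB and 17.8-fold for GAPDH. Among 20 cell cycle genes TYMS, thymidylate synthase, rose by 1.48 ± 0.24 (list median 0.24), and among 15 immediate early genes KLF6, a transcription factor, rose by 2.08 ± 0.39 (0.50). Both calls were lost without large replicates 1 or 3, and that of KLF6 also without small replicate 2. The dimmer probe of KLF6 differed by 0.29 and was not called. Among 19 glycolysis and hypoxia genes (0.35), SLC2A5, a fructose carrier, and HK3, the hexokinase of white blood cells, rose by 2.74 ± 0.36 and 2.48 ± 0.50, and the HK3 call was lost without any single large artery or small replicates 2, 3 or 4. Leaving out at least 1 of the medium arteries, which enter only the error estimate, also ended the calls of KCNA5, COL13A1, MYLK, TGFB1, NRIP1 and HK3. The respiratory chain had no call among 21 and a median of -0.02. An unadjusted p under 0.05 was seen in 1 of them, against 16.1% of all probes.

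The 3 large arteries were not alike in the genes that rose. Among the 510 called rises with a value in all 7 arteries, large replicate 2, at 0.61 mm2 the smallest of its group, was the large artery nearest to the small ones in 82.0%, against 32.6% over all probes. Placed on a scale where the small group mean is 0 and the large group mean is 1, the median rise stood at 0.82 in large replicate 2, 1.10 in large replicate 1 and 1.08 in large replicate 3. For the called falls the corresponding values were 0.86, 0.99 and 1.10. Large replicate 2 was also the lowest of its group in the means of the macrophage (1.43 log2 units above the small mean, against 1.96 and 1.94), lysosomal (1.64 against 2.30 and 2.39) and lipid lists (1.54 against 1.95 and 2.35). In the contractile, channel and cytoskeletal lists it was again the nearest to the small group, at -0.23, -0.15 and 0.06, while the other 2 large arteries lay between -1.01 and -0.31. With 3 arteries no relation to area was tested. The called probes were chosen on these same values, so the positions are a description.

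Among the small arteries, replicate 1, with 0.113 mm2 the largest lesion of its group, was the nearest to the large ones in 45.3% of those rises, against 31.7% over all probes, and small replicate 2, without plaque, in 7.45% against 15.2%. The median rise stood at 0.11 in small replicate 1, -0.10 in replicate 2, -0.00 in replicate 3 and 0.01 in replicate 4. These rises were called on the same values, and the scale is set by the group means. The positions therefore cannot show whether any small artery is intermediate. Small replicate 4, without plaque, has an identity number in the labels that lies apart from most others. Without it and the medium artery of that kind 316 probes were called. Set against only the 2 small arteries without plaque, the large arteries had 729 called probes, 335 of them among the 617. Set against only the 2 with a minor lesion, they had 129, of which 102 were among the 617. In that last comparison 5 macrophage markers, 6 lysosomal genes, 4 lipid handling genes and no MHC class II gene were called.

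**Figure D5:**
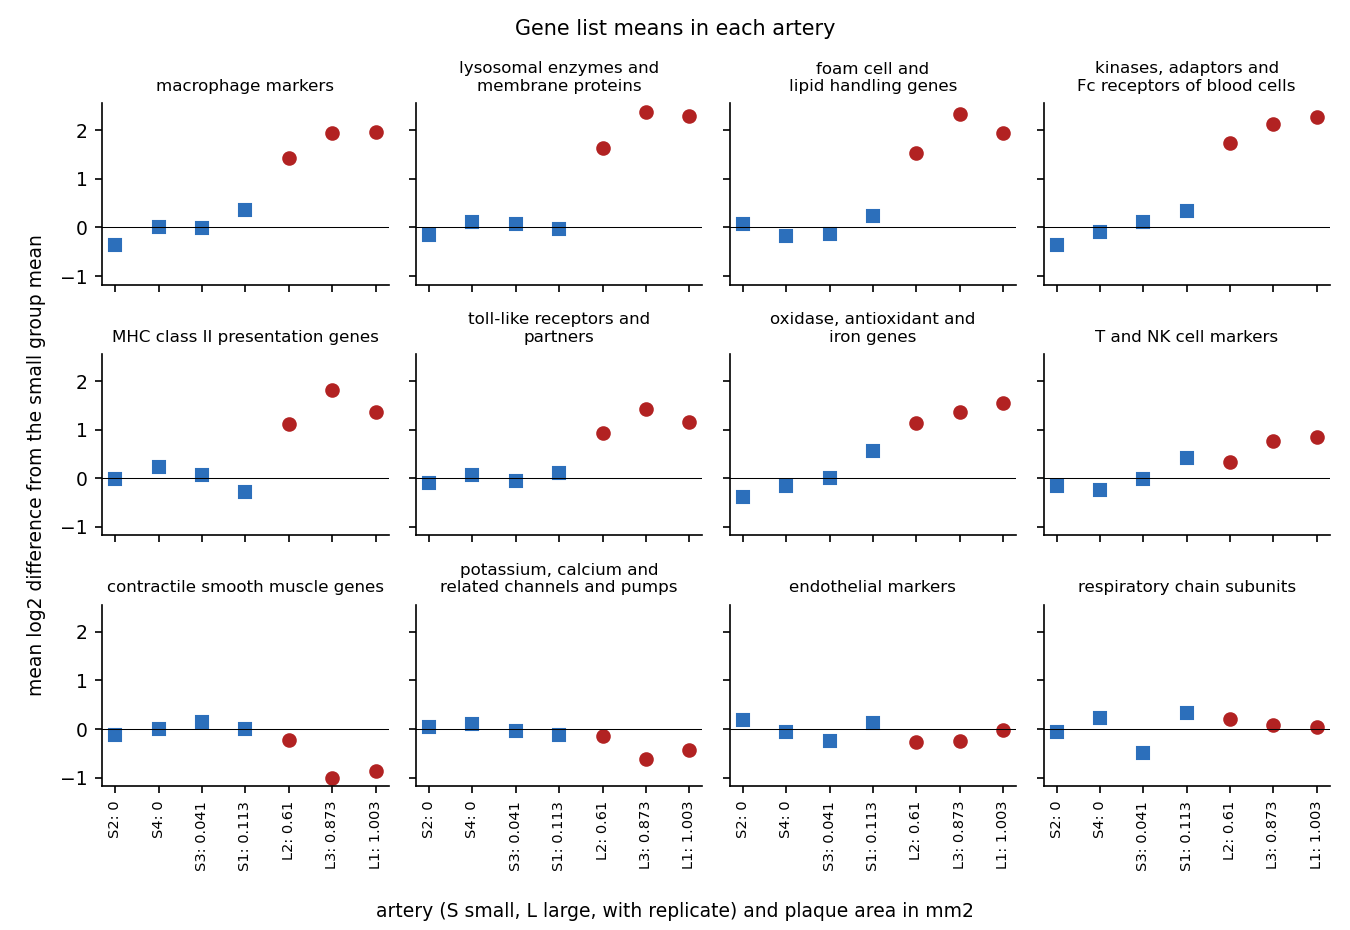
Mean log2 difference from the small group mean for the members of 12 gene lists in each of the 7 arteries, ordered by plaque area in mm2. Red circles are large and blue squares small arteries. In the macrophage, lysosomal and lipid panels the 3 large arteries lie between 1.43 and 2.39 and the small ones between -0.35 and 0.35, while in the endothelial and respiratory chain panels the 2 groups overlap.

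No probe passed the test between large and medium plaque arteries. None of the 53877 was called in that comparison (0.0%; 2713 had an unadjusted p under 0.05 and the lowest adjusted p was 0.0628), which shares its large arteries and its error estimate with the comparison above. GDF15 read 9.59 to 26.3 in the 5 medium arteries, CYP27A1 60.4 to 128 and IGSF10 0.600 to 0.862, and the differences of large from medium arteries were -0.01 ± 0.46, 0.07 ± 0.31 and 0.65 ± 0.41. GPX4 was different. Its medium arteries read 0.320 to 0.589, within the range of the small arteries, and the difference of large from medium was 4.22 ± 0.85 (adjusted p = 0.547). CRIP2 read 0.962 to 2.16 in medium arteries (2.12 ± 0.37, adjusted p = 0.448), below all 3 large ones. BMP5 and VSX1 read 0.173 to 0.364 and 0.319 to 0.455 in medium arteries, above all 3 large ones in both genes, with differences of -1.11 ± 0.33 and -1.02 ± 0.17. None of these 4 differences was called, and whether they differ from those of other genes was not tested.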

How the data were processed

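Per the labels' protocols, RNA of each artery biopsy was purified, amplified to biotinylated cRNA from 0.275 µg, hybridized to CodeLink human arrays, stained with Alexa-647 and scanned, with 1 colour and 1 array per animal. The authors' deposited values are linear intensity values whose median lies close to 1 on each of the 12 arrays. Some are negative, which shows a background subtraction before deposit. Not given in the sources used here are the scaling formula, the background method and the imaging software. The number of arrays limits the precision.

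Of 54359 probes, 479 were empty and 53877 were measured in 2 or more animals of every group and tested. A floor of 0.111, the 5th percentile of positive intensities, replaced lower values (5.45% of all), and log2 was taken without further normalization. Gene names came from the platform annotation, which can be old: 23267 tested probes had 1 symbol, 900 several and 29710 none here. limma version 3.58.1 in R version 4.3.3 fitted 3 group means over 12 arrays (lmFit, eBayes), giving two-sided p-values with Benjamini-Hochberg adjustment across the 53877 probes, and a threshold of 0.05. Arrays of 53877 probes were simulated with independent normal values and 1 spread per probe for all groups. In them 200 probes were changed in the large arrays. For large against small, 17.2%, 66.0%, 92.8% and 98.0% of changes of 1, 2, 3 and 4 log2 units were recovered, and 6.16% of calls were false. The real small arteries varied more than the large ones, so these rates need not hold for the real arrays.

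Named were the 15 single-symbol genes of largest rise and of largest fall, the 8 of smallest p each way (each by its probe of smallest p), called members of 37 gene lists with up to 4 others of each, and 11 fixed genes. A list member is the brightest probe with a value on every array. The members, the lists and the rule were chosen with earlier results of these data known, so no list is independent evidence. The samples were grouped by their titles. Replicates were separate animals. Alternatives covered normalization, floor, dim and incomplete probes, the probe of a gene, the variance model, array weights, the threshold, the arrays fitted, a block for the replicate number and leaving out each animal. No sequence is shown, since none was at hand for these probes.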

Additional observations from a re-analysis of the deposited data

Results flagged for a closer look

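In 153 named genes the 4 small arteries were searched for an artery whose gap to its nearest neighbour fills most of the group's range on the log2 scale. Chance gives such a gap in about 1 in 20 groups of 4, and 11 genes had one. Small replicate 1 stood high for TREM2 (gap 0.997 of the range, 4.30 against 0.712 to 0.716 in the others) and CYP27A1 (0.942) and low for HLA-DPA1 (0.861, 0.256 against 11.7 to 21.7). Small replicate 3 stood high for GRN (0.964, 5.01 against 2.03 to 2.09), CRIP2 (0.871) and CHIT1 (0.841) and low for LAMP2 (0.9). Small replicate 4 stood high for ADAMDEC1 (0.888) and low for COL1A1 (0.906), and small replicate 2 stood low for IRF8 (0.894) and PTPN6 (0.849). The large group, with 3 arteries, was not searched.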

How the results depend on the processing

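All numbers here are counts of probes called unless a difference is named. The 617 calls of large against small (511 higher, 106 lower) became 1397 (950 and 447) among probes brighter than the median, 1107 (865 and 242) with an intensity trend, 1254 (963 and 291) with array weights, 379 (336 and 43) with the 7 arrays only, 316 (280 and 36) without the 2 animals whose numbers lie apart, 129 (114 and 15) against small arteries with plaque, 135 (129 and 6) at an adjusted p under 0.01 and 1747 (1185 and 562) under 0.1. Only the falls moved by over 1.5 times with the floor at the 1st percentile (59), at the 10th (175), on log2 of intensity plus 1 (280) or with the replicate number as a block (55, of 448 calls in all). With 1 animal left out at a time, calls ranged from 112 to 1216, rises from 96 to 784 and falls from 16 to 432. No called probe changed sign under any of these 28 settings, and the median of all probes ranged from -0.13 to -0.04. Same-numbered large and small arteries deviated together with correlations of 0.09, 0.04 and 0.18, not all over 0.1. Arteries of unlike number were not correlated, so these values cannot show whether the number carries a shared effect. No label says that the numbers pair animals, and they were taken as names only. Large against medium had 0 calls, 1 with quantile normalization, 3 with array weights, 1 at an adjusted p under 0.1 and 0 to 3 with 1 animal left out. Other probes of a gene reversed the difference of COL27A1 (0.082), CTSC (-0.63), GRN (-0.24), LYL1 (-0.14), MITF (-0.58), MLPH (-0.015), MMP19 (-0.12), MYLK (0.73), NRIP1 (-0.30), PECAM1 (1.25 and 0.15), PTPRC (-0.62), SOD2 (-0.28), SQSTM1 (2.86), SYK (-0.38), TLR4 (-0.28) and VSX1 (0.14); why was not tested. Differences near 0 changed sign elsewhere: COL1A1 (0.11) without the animals of numbers apart (-0.0067), against small arteries with plaque (-0.017) and with 1 animal left out (-0.0067 to 0.19), VCAM1 (0.045) with 1 left out (-0.068 to 0.16), and PECAM1 (-0.063) with quantile normalization (0.064), array weights (0.0043), against arteries without plaque (0.10) and with 1 left out (-0.18 to 0.032). Of 128 called genes named, 36 stayed called throughout and 16 lost the call in most of up to 28 settings. Medians of lists near 0 moved widely over the alternatives: T and NK cells 0.13 to 0.90, glycolysis 0.20 to 0.66, immediate early genes 0.16 to 0.60, proteases 0.27 to 0.60, cytoskeleton -0.46 to -0.12, channels -0.50 to -0.26, cholesterol synthesis -0.44 to -0.17, mast cells -0.69 to -0.16 and skeletal muscle -0.68 to -0.27.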

Other observations

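4 groups were put together after the values had been seen and are given as values, without a test of the group. Some of their genes, such as GPX1, GPX3 and GPX4, also stand in the lists above. Selenoproteins carry selenocysteine, and several reduce peroxides. Of 21 measured, 7 were called higher in large arteries, none lower, and the median was 0.16, against 1.91% of all genes called higher and a median of -0.05. SELENOP, the selenium carrier of plasma, read 12.7, 5.66 and 10.7 in large and 0.582, 0.476, 0.557 and 0.709 in small arteries and rose by 3.99 ± 0.75 (adjusted p = 0.0273). SELENOT, a protein of the endoplasmic reticulum, read 5.54, 3.87 and 4.83 against 0.871, 0.457, 0.593 and 1.11 and rose by 2.71 ± 0.58. Neither overlapped between the groups. SEPHS2 (1.97), which makes the selenium donor, MSRB1 (1.77), a methionine sulfoxide reductase, and the glutathione peroxidases GPX1, GPX3 and GPX4 were the others. Without large replicate 1, large replicate 3 or small replicate 2, GPX1 and GPX3 were the 2 calls left. Small replicates 3 and 4 left 4 each when taken out, and SELENOT lost its call in 19 of 28 alternatives. The proton pump of the lysosome and its regulators had 6 of 29 called higher, none lower, a median of 0.92 and 24 differences above 0. RRAGD, a GTPase that brings the growth kinase mTORC1 to the lysosome, read 19.0, 5.83 and 22.8 against 2.60, 1.53, 1.06 and 1.43 and rose by 3.12 ± 0.58, and the pump subunit ATP6V0D1 read 23.4, 8.93 and 16.1 against 1.57, 1.55, 3.48 and 2.97 and rose by 2.74 ± 0.46. Large replicate 2 was the lowest of its group in both. ATP6V1B2 (1.93), the lysosomal channel MCOLN1 (1.74), the transcription factor MITF (1.55) and LAMTOR2 (1.28) rose as well. All 6 calls were lost without large replicate 1, without large replicate 3 and against only the small arteries with a minor lesion, and 3 were left without small replicate 2.

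Transcription factors of blood cells had 4 of 29 called higher and none lower, with a median of 0.27. CEBPA, which drives myeloid differentiation, read 27.9, 10.8 and 24.2 in large and 2.05, 1.28, 1.88 and 1.96 in small arteries and rose by 3.46 ± 0.34 (adjusted p = 0.00092). IRF8, a factor of monocytes and dendritic cells, read 16.6, 9.10 and 19.8 against 3.93, 2.87, 3.87 and 3.80 and rose by 2.01 ± 0.27, and BATF read 6.92, 5.66 and 8.48 against 1.75, 1.11, 1.46 and 1.39 and rose by 2.30 ± 0.24. No small artery reached a large one in these 3. CEBPA and BATF stayed called in all 28 alternatives. LYL1 rose by 2.13 ± 0.44 on 1 probe and differed by -0.14 on another, and its call was lost without any single large artery and in 13 of 28 alternatives. Of 17 BCL2 family genes, which govern cell death, 3 were called higher and none lower: HRK (3.86), PMAIP1 (1.94) and BID (1.57). Of the 17 differences 9 were above 0. The large arteries lay wholly above the small ones in 6 genes and wholly below in 1, against 5.99% and 8.5% of all probes. BCL2 (1.30) and MCL1 (1.45) were among the 6 but not called, and BAX (-0.50) was the 1 below. A shift of the family towards or away from cell death was not tested. HRK read 4.52, 1.22 and 3.22 against 0.317, 0.157, 0.111 and 0.191, with small replicate 3 at the floor, and the median of the family was 0.00. None of the 3 stayed called without large replicate 1 or without large replicate 3, and 1 did without small replicates 2, 3 or 4.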
